A study of Mus musculus with 10 samples.

Results

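Fibroblasts and the non-collagen matrix they deposit were followed through 38 genes in mouse mammary tumours, chosen by gene symbol from a count table of 26063 genes. The set was divided by where the transcript can come from. Of the members, 22 were listed as made mainly by fibroblasts and related stromal cells (called fibroblast-restricted here). The other 16, with Fn1, Spp1 and Vim among them, were listed as also made by tumour cells, macrophages or other cells. The names of these lists are labels, and which cells made a transcript in these tumours was not tested. After a filter on low counts 37 members were tested among 14915 genes. S100a4, a calcium-binding protein of motile cells, was left out by that filter, with levels of 0 to 2.06 CPM (counts relative to library size, scaled by the trimmed mean of M-values, TMM) over all tumours.

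The study sequenced RNA of mammary tumours from 10 female FVB/N mice, 5 of the genotype EIC/WT (EIC) and 5 of the genotype 16IC/WT (16IC). All mice of both groups were given doxycycline at 2 mg/ml, and tumours were collected at end point and flash frozen. The labels do not spell out EIC and 16IC, name no promoter for a transgene and give no age, and the series title names HER2∆16, ENPP1 and an immune cold microenvironment. Each tumour came from its own mouse, and the number after a group name only tells tumours apart. Depth ran from 14813940 counts (16IC 4) to 16947400 counts (EIC 5). Epcam, a surface protein of epithelial cells, stood between 1227 and 2085 CPM in all 10 tumours, and it was highest in 16IC 3. It shows epithelial RNA but does not check that the tissue is mammary. Krt19, another epithelial gene, was at 2.79, 3.53, 3.04 and 0 CPM in EIC 2, 16IC 1, 16IC 3 and 16IC 4.

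Fibroblasts are the main builders of the tumour stroma. They secrete fibrillar collagens, small proteoglycans such as decorin that coat and space the fibrils, elastic fibre proteins and the lysyl oxidases that crosslink them. Adhesive proteins such as fibronectin tie cells to this matrix through integrins, and matricellular proteins such as tenascin C and osteopontin act on cells without carrying load. In mammary tumours part of this second group is also known as a product of carcinoma cells and of macrophages.

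Most members stood lower in 16IC than in EIC on average, but single genes were rarely separated from the spread between tumours. The log2 difference of 16IC over EIC was below 0 for 35 of the 37 tested members, beside 52.3% of all genes tested, and only Lum and Cthrc1 lay above 0. The median was -0.75 over the members and -0.02 over all genes tested. It was -0.52 for the 22 fibroblast-restricted genes and -1.28 for the 15 tested genes also made by other cells. The members were measured in the same 10 tumours, so these counts describe tumours and not 37 independent genes. Because the RNA is from whole tumours, fewer cells of a type and less RNA per cell cannot be told apart.

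No member passed an adjusted p of 0.05 in edgeR's quasi-likelihood test (Benjamini-Hochberg over all genes tested), where 0 of 14915 genes passed (0% called). At an unadjusted p under 0.05 the same test had 8 of 37 members, all lower in 16IC, beside 13.1% of all genes in either direction and 6.29% lower. Those were Vcan, Vim, Loxl2, Fn1, Itga5, Pdgfrb, Cdh2 and Lox, and with 1 tumour omitted the count ran from 5 to 11. Vcan, Vim, Loxl2, Fn1 and Itga5 were under that threshold with any 1 of the 10 tumours omitted, and they alone were when it was EIC 1, EIC 3, EIC 4, 16IC 3 or 16IC 4. The 11 without 16IC 2 included Spp1, Tnc and Has2. DESeq2, a second count test, called 3 members, Vcan, Vim and Loxl2, beside 2.11% of the genes for which it gave an adjusted p. With 1 tumour omitted it called between 1 member (without EIC 1, EIC 4, 16IC 1 or 16IC 4) and 6 members (without EIC 2). For fits with 1 tumour omitted, neither the unadjusted share nor DESeq2's share over all genes was counted. The 5 tumours of each genotype did not overlap for 1 of the 37 members, Vcan, with 16IC below EIC. Over all genes tested, 1.19% did not overlap in that direction, and 385 of 14915 did not in either. The count among members is thus near the share over all genes.

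**Figure D1:**
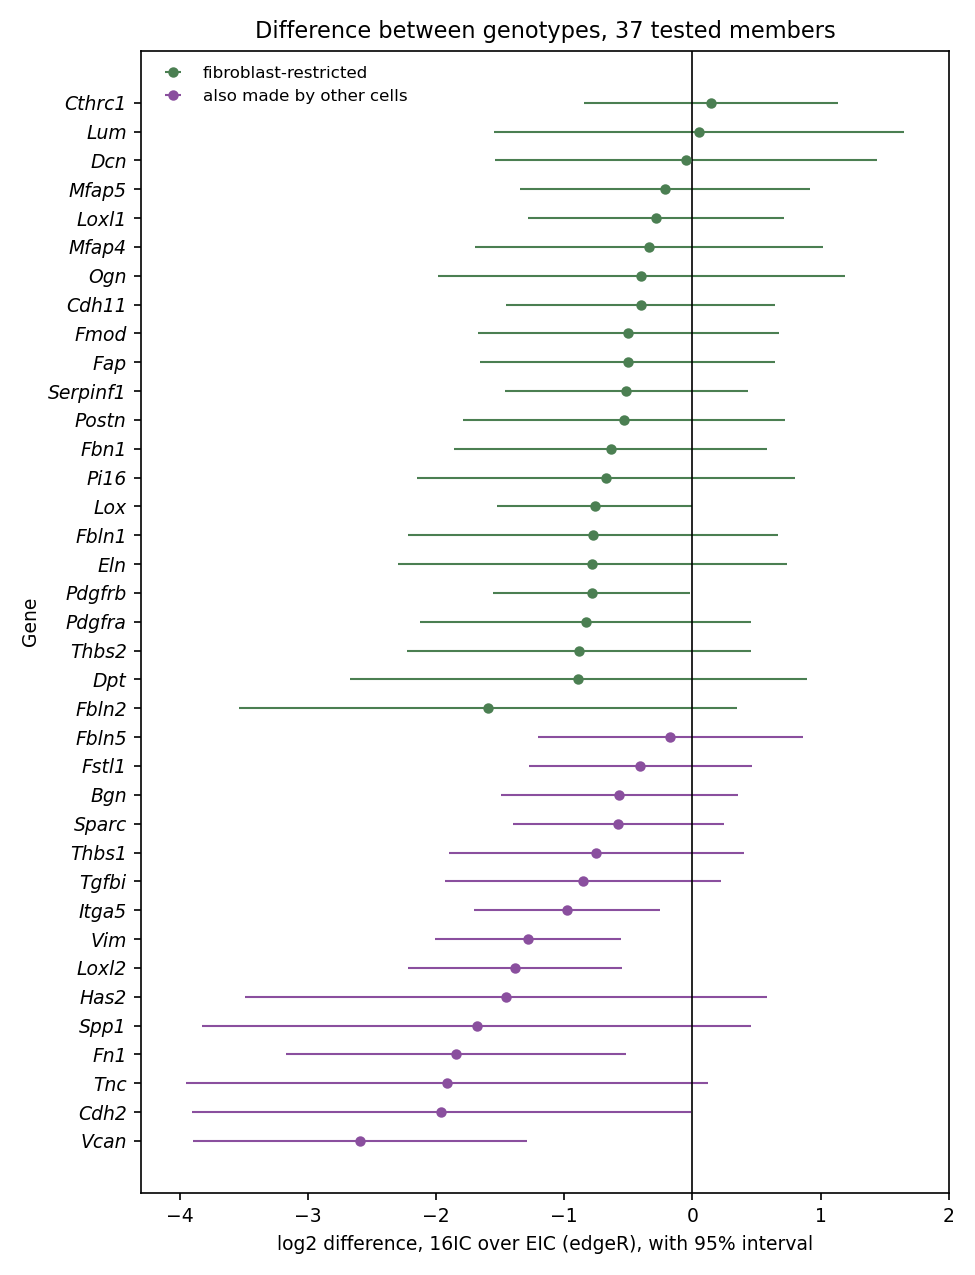
Log2 difference of 16IC over EIC for the 37 tested members (points) with 95% intervals (lines) from edgeR's fit, fibroblast-restricted genes above and genes also made by other cells below. Estimates for 35 genes lie left of 0, and the intervals of 8 genes lie wholly below 0, those of Pdgfrb, Cdh2 and Lox only just.

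Promoter sequences are shown first for 4 members on which the comparison turns: Vcan, whose groups did not overlap, Vim, which DESeq2 called, Spp1, the most abundant transcript and the most variable one, and Postn, a fibroblast-restricted gene whose groups overlapped. Each is the 250 bases before the transcription start in RefSeq on GRCm38.p6, 5′ to 3′ on the gene's own strand. Capitals mark 4 motifs searched on either strand. The first is the TATA box, searched as TATAAA. The second is the GC-rich element bound by Sp1, searched as GGGCGG. The third, bound by NF-Y, was searched as CCAAT. The last, the site of AP-1, was searched as TGACTCA. Vcan lies at chr13:89742513-89742762 (minus strand), Vim at chr2:13574061-13574310, Spp1 at chr5:104434861-104435110 and Postn at chr3:54360857-54361106 (all plus strand). The Vim window ends at a start that lies 384 bases from the gene start in the count table.
Vcan: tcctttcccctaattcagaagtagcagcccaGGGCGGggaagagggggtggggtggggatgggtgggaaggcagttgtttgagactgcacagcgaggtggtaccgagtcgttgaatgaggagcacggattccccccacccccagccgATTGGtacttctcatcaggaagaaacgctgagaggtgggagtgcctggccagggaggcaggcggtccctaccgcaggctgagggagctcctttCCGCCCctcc
Vim: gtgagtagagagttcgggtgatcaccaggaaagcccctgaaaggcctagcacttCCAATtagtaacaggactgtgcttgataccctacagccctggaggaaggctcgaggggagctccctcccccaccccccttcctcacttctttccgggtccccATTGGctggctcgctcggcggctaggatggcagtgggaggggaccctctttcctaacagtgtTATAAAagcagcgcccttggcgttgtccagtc
Spp1: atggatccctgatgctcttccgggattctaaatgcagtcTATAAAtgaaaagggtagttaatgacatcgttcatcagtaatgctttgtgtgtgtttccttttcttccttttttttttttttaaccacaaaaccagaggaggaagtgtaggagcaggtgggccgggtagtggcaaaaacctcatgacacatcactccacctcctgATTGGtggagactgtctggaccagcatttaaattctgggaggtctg
Postn: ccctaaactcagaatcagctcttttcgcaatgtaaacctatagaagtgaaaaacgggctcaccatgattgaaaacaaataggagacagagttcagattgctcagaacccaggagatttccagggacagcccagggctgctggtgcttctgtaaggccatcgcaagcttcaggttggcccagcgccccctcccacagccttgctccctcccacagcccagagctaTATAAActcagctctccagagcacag

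Vim and Postn carried the TATA box close to the start, at 32 to 27 and 26 to 21 bases upstream. In Spp1 the same letters stood 211 to 206 bases upstream, and Vcan had none in this window but held the Sp1 element from 10 to 5 bases upstream. The RefSeq table matched 22 of the 38 members. TATAAA was present in 7 of these 22 and in 12.4% of 32851 mouse promoters of this length, GGGCGG in 9 and 32.7%, CCAAT in 7 and 33.9%, and TGACTCA in 0 and 4.46%. A match describes these letters only.

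Surface and marker genes of fibroblasts came first by role. All 6 had a log2 difference below 0 (median -0.73), and only Pdgfrb had an unadjusted p under 0.05. Pdgfra, the platelet-derived growth factor receptor alpha by which fibroblasts are usually recognised, measured 54.1, 10.9, 20.0, 43.2 and 27.6 CPM in EIC 1 to EIC 5 and 17.6, 22.6, 3.34, 9.25 and 34.7 CPM in 16IC 1 to 16IC 5. The groups overlapped widely, with EIC 1 at the top and 16IC 3 far below every other tumour. Its means of 31.1 ± 17.4 and 17.5 ± 12.2 CPM (SD, n = 5) gave a log2 difference of -0.83 (SE 0.58, adjusted p = 0.544, edgeR).

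Pdgfrb, the related receptor beta, is carried by fibroblasts and by mural cells of vessels. It stood at 43.1, 27.9, 89.0, 53.7 and 30.2 CPM in the EIC tumours in order and at 30.0, 39.2, 16.2, 22.0 and 33.9 CPM in the 16IC tumours. EIC 3 was highest and 16IC 3 lowest, and the lower EIC tumours lay among the 16IC ones. On the log2 scale the difference was -0.79 (SE 0.35, unadjusted p = 0.0459, adjusted p = 0.372, edgeR). Mural cell markers summed to 286 to 693 CPM across EIC and 318 to 465 CPM across 16IC, with EIC 3 highest in that sum too, and their part in the Pdgfrb values was not tested.

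Fap, the fibroblast activation protein, was scarce. Its levels were 11.1, 2.85, 4.61, 7.94 and 4.22 CPM across EIC and 4.18, 6.72, 0.851, 4.52 and 5.39 CPM across 16IC, and apart from 16IC 3 the 16IC tumours lay within the EIC range. The log2 difference of -0.50 had a 95% interval from -1.66 to 0.65. Pi16 and Dpt, which mark fibroblasts of resting connective tissue, and Cdh11, a cadherin of mesenchymal cells, spanned wide ranges with log2 differences of -0.67, -0.89 and -0.40 and adjusted p-values of 0.663, 0.631 and 0.721 (edgeR). In 16IC 3 Pi16 was at 0.851 CPM and Dpt at 1.28 CPM, and both were highest in EIC 1, at 50.1 and 64.3 CPM.

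Among the small leucine-rich proteoglycans, the most widely used fibroblast genes differed least between the group means. Dcn, which encodes decorin, measured 182, 40.8, 27.2, 87.2 and 82.0 CPM in EIC 1 to EIC 5 against 102, 89.9, 6.08, 117 and 90.8 CPM in 16IC 1 to 16IC 5. Leaving aside EIC 1 at the top and 16IC 3 at the bottom, the remaining 16IC tumours lay above the remaining EIC ones. The means were 83.9 ± 60.8 and 81.1 ± 43.3 CPM, and the log2 difference of -0.05 had a 95% interval from -1.54 to 1.44. The interval does not exclude a change of more than 2-fold in either direction.

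Lum, encoding lumican, lies 46985 bases from Dcn on chromosome 10 and followed the same order at both ends. It ranged from 9.95 to 93.6 CPM in EIC, with a median tumour at 40.9 CPM, and from 3.10 to 64.0 CPM in 16IC, with a median tumour at 51.4 CPM. Its log2 difference was 0.05 (SE 0.72), and the sign turned with scaling by total counts (-0.00042). Bgn, Fmod and Ogn, which encode biglycan, fibromodulin and osteoglycin, had log2 differences of -0.57, -0.50 and -0.40 with adjusted p-values of 0.559, 0.687 and 0.821 (edgeR).

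Vcan was the member without overlap between the groups. It encodes versican, a large chondroitin sulfate proteoglycan that binds hyaluronan in loose, provisional matrix, and spans chromosome 13 from 89655312 to 89742509 (GRCm38, minus strand). Levels were 135, 124, 446, 95.2 and 60.2 CPM in EIC 1 to EIC 5 and 43.6, 34.9, 10.5, 16.9 and 36.9 CPM in 16IC 1 to 16IC 5. Every 16IC tumour lay below every EIC tumour, and EIC 3 stood far above the rest.

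The means of Vcan were 172 ± 156 CPM across EIC and 28.6 ± 14.1 CPM across 16IC. The log2 difference, -2.59 (SE 0.59), had bounds of -3.89 and -1.29 at 95% (unadjusted p = 0.00117, adjusted p = 0.249, edgeR). Without EIC 3 it was -1.87, and Tnc (-2.11) and Fn1 (-1.90) then lay lower than Vcan. DESeq2 gave an adjusted p of 8.78e-04 and called Vcan with any 1 of the 10 tumours left out, the highest adjusted p among those fits being 0.0100. Has2, the hyaluronan synthase whose product versican binds, was far scarcer. Its levels ran from 1.08 to 8.11 CPM across EIC and from 0.122 to 3.93 CPM across 16IC, for a log2 difference of -1.45 (adjusted p = 0.500, edgeR).

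**Figure D2:**
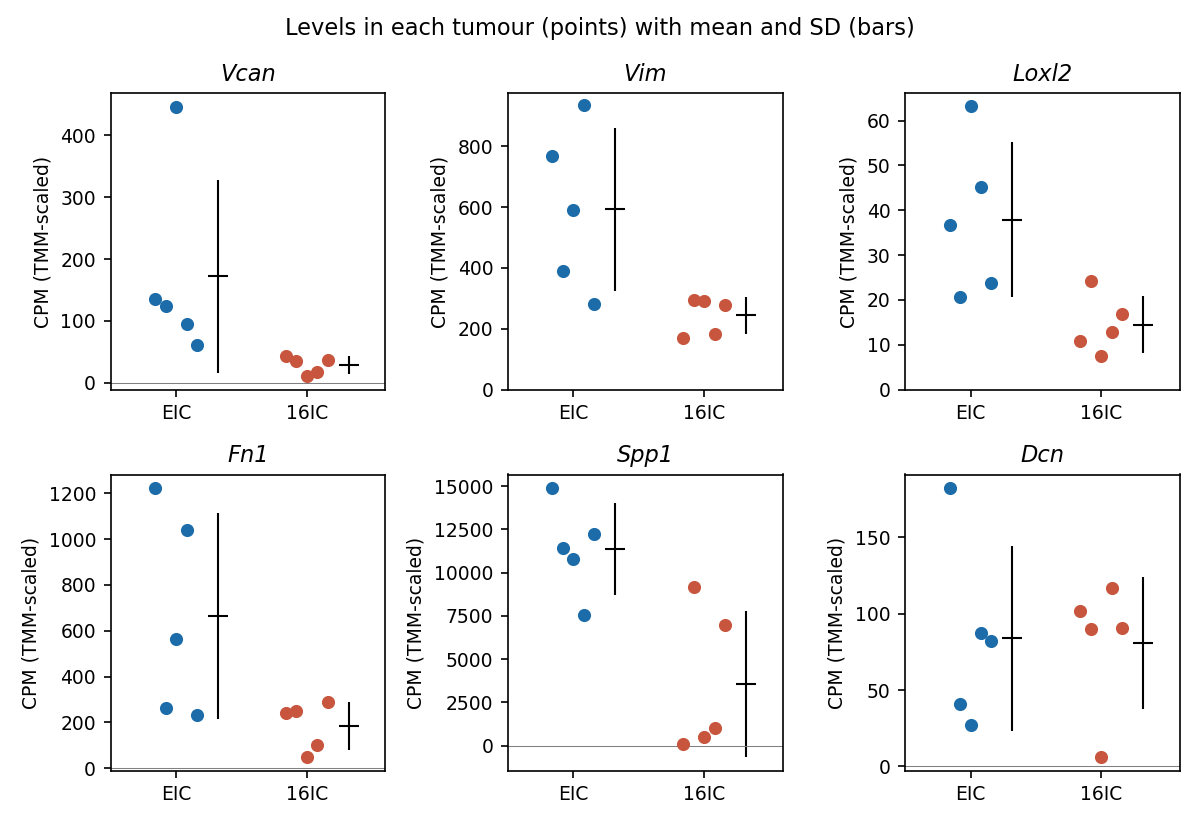
CPM (TMM-scaled, linear axes) of Vcan, Vim, Loxl2, Fn1, Spp1 and Dcn in each tumour, EIC blue and 16IC red, with mean and SD as black bars beside the points. Vcan alone shows no overlap, Spp1 has 3 of the 16IC tumours near the floor of the plot, and Dcn has the 2 groups at like levels.

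Elastic fibre and crosslinking genes all stood lower on average, 10 of 10 with a median log2 difference of -0.70. Loxl2, a lysyl oxidase-like enzyme made by fibroblasts and by some carcinoma cells (chromosome 14, 69609068 to 69695834), was at 36.6, 20.7, 63.3, 45.3 and 23.8 CPM across EIC and 10.9, 24.3, 7.54, 13.0 and 16.9 CPM across 16IC. Only 16IC 2 reached into the EIC range, above EIC 2 and EIC 5. The fitted log2 difference was -1.38 (SE 0.38, adjusted p = 0.264, edgeR, and 0.0280, DESeq2). Leaving out EIC 1, EIC 3, EIC 4, 16IC 1, 16IC 3 or 16IC 4 ended the DESeq2 call, with adjusted p-values up to 0.109.

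Lox, the founding lysyl oxidase, stood at 74.7, 64.6, 79.7, 90.0 and 41.1 CPM across EIC and 41.2, 63.0, 22.1, 20.9 and 59.0 CPM across 16IC. EIC 5 lay among the 16IC tumours, and the other EIC tumours lay above all of them. The log2 difference was -0.76 (SE 0.34, unadjusted p = 0.0491, adjusted p = 0.381, edgeR). Loxl1, the family member tied to elastic fibre assembly, differed by -0.28 with a 95% interval from -1.28 to 0.72.

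Eln, which encodes elastin itself, ran from 20.1 to 94.8 CPM across EIC and from 3.65 to 54.6 CPM across 16IC, for a log2 difference of -0.78 (adjusted p = 0.622, edgeR). Fbn1, the fibrillin of the microfibril scaffold, and the microfibril-associated Mfap4 and Mfap5 had log2 differences of -0.64, -0.34 and -0.21 with intervals across 0. Of the exonic bases of Fbn1, 20.1% are shared with Gm9913 on the opposite strand, and the strand setting of the counting is not stated in the sources at hand. Fbln1 and Fbln5, fibulins of elastic fibres, had log2 differences of -0.78 and -0.17. Fbln5 broke the usual order of tumours, since its highest level, 630.2 CPM, was in 16IC 1.

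Fbln2, a fibulin that binds fibronectin and elastic fibres, divided into low and high tumours across the genotypes. It measured 479.7, 56.4, 891, 774 and 645 CPM across EIC and 65.6, 329, 44.6, 26.1 and 477 CPM across 16IC. EIC 2, 16IC 1, 16IC 3 and 16IC 4 were low and the other 6 tumours high, with a 5.01-fold gap between the nearest of them. Dcn and Lum, of the same list, did not divide so: in 16IC 4, where Fbln2 was lowest, they were at 117 and 64.0 CPM, and in EIC 3, where it was highest, at 27.2 and 9.95 CPM. The log2 difference of -1.60 came with an SE of 0.88 (adjusted p = 0.449, edgeR).

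Tnc, encoding tenascin C, a matricellular protein of wounds and invasive tumours, had the same 4 low tumours and a 3.71-fold gap. Its levels were 841, 64.6, 261, 942 and 619 CPM across EIC and 70.4, 312, 24.0, 16.4 and 300.2 CPM across 16IC, which gave a log2 difference of -1.92 (SE 0.92, adjusted p = 0.399, edgeR). In all, 12 of the 38 members had these tumours as their 4 lowest, most with no gap like that of Fbln2 and Tnc. They are Pdgfra, Pdgfrb, Fbln1, Fbln2, Pi16, Mfap4, Loxl1, Sparc, Tnc, Bgn, Itga5 and Cdh2. The same count was not made over all genes tested, so it is not shown to be particular to the members.

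The summed level of basal epithelial markers (Krt5, Krt14, Krt17 and Trp63) divided the tumours in the same way. It was 2.44 CPM in EIC 2, 2.74 in 16IC 1, 1.82 in 16IC 3 and 2.13 in 16IC 4, against 22.4 to 557 CPM in the other 6. Krt5 alone did not divide so, at 0.937 CPM in 16IC 1 but 0.719 in EIC 3 and 0.625 in EIC 4. Trp63 left little gap, at 1.99 CPM in 16IC 4 and 2.31 in EIC 4. Krt14 was at 0 in 16IC 3, and Krt5 and Krt17 were at 0 in 16IC 4. Of the 5 luminal markers, Krt19 was at 2.79, 3.53, 3.04 and 0 CPM in these 4 tumours and at 233 to 446 CPM in the others. Epcam had the opposite order, at 1721, 1597, 2085 and 1894 CPM in them and 1227 to 1585 CPM in the others. Krt18 followed neither, with its highest level, 1599 CPM, in 16IC 3, and the sum of the luminal markers kept between 3174 and 5470 CPM over all tumours. The part of epithelial composition in the Fbln2 and Tnc values was not tested.

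**Figure D3:**
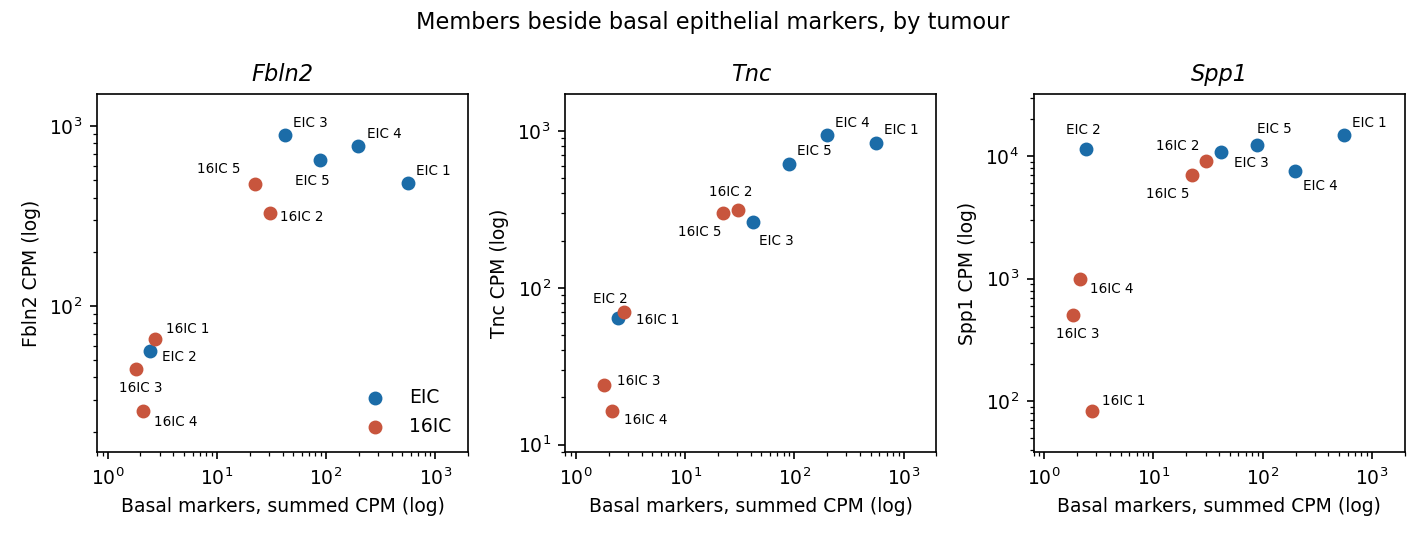
CPM of Fbln2, Tnc and Spp1 (vertical, log scale) against the summed CPM of 4 basal epithelial markers (horizontal, log scale), 1 point per tumour, EIC blue and 16IC red. EIC 2, 16IC 1, 16IC 3 and 16IC 4 sit at the lower left for Fbln2 and Tnc, whereas for Spp1 EIC 2 sits with the high tumours.

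The adhesive and matricellular proteins held the most abundant members, and 10 of 11 had a log2 difference below 0 (median -0.75). Fn1 encodes fibronectin, which fibroblasts, macrophages, endothelium and tumour cells can all make, and lies on chromosome 1 from 71585520 to 71653200. It measured 1223, 262, 565, 1038 and 233 CPM across EIC and 241, 249.8, 47.6, 99.1 and 289 CPM across 16IC. EIC 1, EIC 3 and EIC 4 lay above all 16IC tumours, EIC 2 and EIC 5 lay among them, and 16IC 3 was lowest.

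The means of Fn1 were 664 ± 450.2 CPM and 185 ± 105 CPM. The log2 difference, -1.84 (SE 0.60), had bounds of -3.17 and -0.52 at 95% (unadjusted p = 0.0111, adjusted p = 0.290, edgeR). By DESeq2 the adjusted p was 0.0534, and it was under 0.05 in 4 of the 10 fits with 1 tumour left out.

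Spp1 encodes osteopontin, a secreted ligand of integrins and CD44 that tumour cells and macrophages make in large amounts (chromosome 5, 104435118 to 104441050). It measured 14898, 11447, 10804, 7541 and 12248 CPM across EIC and 83.1, 9167, 501, 998 and 6986 CPM across 16IC. Spp1 was high in all EIC tumours, in 16IC 2 and in 16IC 5, and it was low in 16IC 1, 16IC 3 and 16IC 4. 16IC 2 lay above EIC 4, so the groups overlapped.

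The means of Spp1 were 11387 ± 2655 CPM and 3547 ± 4218 CPM, and the log2 difference of -1.68 came with an SE of 0.97 (adjusted p = 0.468, edgeR). The fold between the highest and the lowest tumour was 179, the widest of the tested members. Unlike Fbln2 and Tnc, Spp1 was high in EIC 2. Macrophage markers (8 genes, none at 0 in any tumour) summed to 323, 253 and 287 CPM in 16IC 1, 16IC 3 and 16IC 4, where Spp1 was low. In the other tumours they summed to between 329.9 CPM (EIC 2) and 616 CPM (EIC 1). Their part in the Spp1 values was not tested. Of the exonic bases of Spp1, 18.8% are shared with Gm42793 on the same strand.

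Postn encodes periostin, a matricellular protein of activated stroma. It measured 486, 241, 223, 615 and 297 CPM across EIC and 197, 568, 50.9, 117 and 353 CPM across 16IC. 16IC 2 was second only to EIC 4, and 16IC 3 was lowest. On the log2 scale the difference was -0.53 with a 95% interval from -1.79 to 0.73.

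Sparc, a collagen-binding matricellular protein made by fibroblasts, endothelium and tumour cells, was at 1003, 488, 673, 1014 and 679.6 CPM across EIC and 450.0, 786, 171, 473 and 707 CPM across 16IC. Here too 16IC 2 and 16IC 5 lay within the EIC range and 16IC 3 lay far below. The fitted log2 difference was -0.58 (SE 0.37, adjusted p = 0.506, edgeR).

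The remaining proteins of this role followed no single order. Thbs1, the thrombospondin that activates latent TGF-beta, was highest in EIC 2, at 2258 CPM, and lowest in 16IC 2, at 335 CPM, which are ends that no other tested member shared. Thbs2, its fibroblast-made relative, was highest in EIC 1 and lowest in 16IC 4, and the 2 genes differed by -0.75 and -0.88 on the log2 scale (adjusted p = 0.539 and 0.534, edgeR). Tgfbi, a TGF-beta-induced adhesion protein, Serpinf1, an anti-angiogenic serpin, and Fstl1, a follistatin-like glycoprotein, had log2 differences of -0.85, -0.52 and -0.41. Cthrc1, a secreted protein of activated fibroblasts, was the only other member above 0, at 0.15 (adjusted p = 0.902, edgeR), and 16IC 3 held a middle level of it, 15.9 CPM.

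Cell-side mesenchymal genes were all lower on average, with 3 of 3 tested members at an unadjusted p under 0.05. Vim encodes vimentin, the intermediate filament of fibroblasts, leukocytes, endothelium and of carcinoma cells with mesenchymal traits (chromosome 2, 13573927 to 13582826). It measured 768, 389, 591, 935 and 283 CPM across EIC and 171, 294, 293, 184 and 278 CPM across 16IC. Of the EIC tumours only EIC 5 lay among the 16IC ones, which kept to a narrow band.

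The Vim means were 593 ± 267 and 244 ± 61.3 CPM. The log2 difference, -1.28 (SE 0.33), had bounds of -2.01 and -0.56 at 95% (unadjusted p = 0.0026, adjusted p = 0.255, edgeR). By DESeq2 the adjusted p was 0.0167, and leaving out EIC 1, EIC 4, 16IC 1 or 16IC 4 ended the call, with adjusted p-values up to 0.0914. In 16IC 3, where Dcn was at 6.08 CPM, Vim stood at 293 CPM, the second highest level in its group.

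Itga5, the integrin subunit of the main fibronectin receptor, measured 40.7, 16.6, 40.4, 48.4 and 26.5 CPM across EIC and 16.5, 24.7, 11.1, 11.9 and 23.5 CPM across 16IC. All EIC tumours but EIC 2 lay above every 16IC tumour. The log2 difference was -0.98 (SE 0.33, unadjusted p = 0.0131, adjusted p = 0.292, edgeR, and 0.114, DESeq2).

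Cdh2, which encodes N-cadherin, was low throughout, at 3.88, 0.416, 9.41, 7.50 and 1.08 CPM across EIC and 0.288, 1.96, 0.608, 0.343 and 2.46 CPM across 16IC. EIC 1, EIC 3 and EIC 4 lay above all 16IC tumours. Its log2 difference of -1.96 came with an SE of 0.88 (unadjusted p = 0.0488, adjusted p = 0.380, edgeR). S100a4 stayed under 2.07 CPM and was at 0 in EIC 2 and 16IC 3, and 51.7% of its exonic bases are shared with Gm42674 on the same strand, so its counts are uncertain.

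Levels between genes can be compared only per length, for which the authors' FPKM were used. Averaged over the 10 tumours, Spp1 stood at 4408 FPKM, followed by Sparc at 165, Thbs1 at 128 and Vim at 85.6 FPKM. Fbln2 at 57.8 FPKM was highest among the genes listed as fibroblast-restricted, before Postn at 35.1 FPKM. Vcan was at 6.74 FPKM, and Has2 and Cdh2 closed the order at 0.595 and 0.336 FPKM. Neighbours such as Fn1 (35.4 FPKM) and Postn lay well within each other's spread between tumours.

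**Figure D4:**
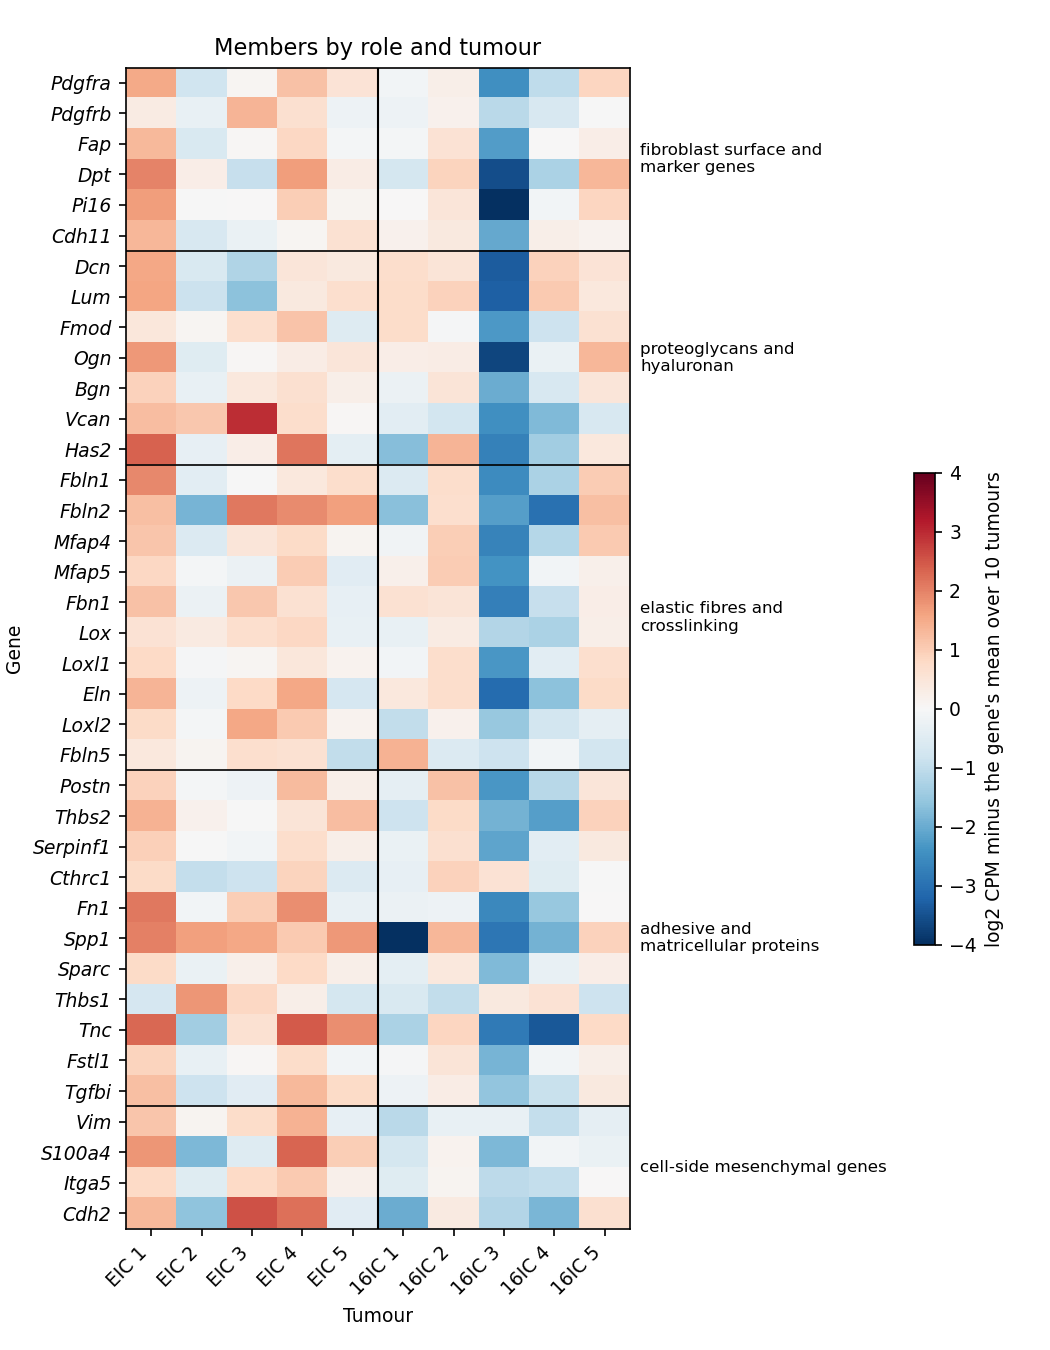
Log2 CPM of each of the 38 members minus that gene's mean over the 10 tumours (colour, red above and blue below, with the scale ending at -4 and 4), genes by role in rows and tumours in columns. The column of 16IC 3 is blue for nearly all genes, those of EIC 1 and EIC 4 are mostly red, and Spp1 in 16IC 1 and Pi16 in 16IC 3 are at the dark end.

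Tumours of the same genotype varied widely. EIC 1 was the highest tumour for 19 of the 38 members and for 14 of the 22 fibroblast-restricted ones, and EIC 4 was highest for 11. 16IC 3 was lowest for 27 members and for 18 of the 22. The fold between the highest and lowest tumour was 13.9 at the median of the fibroblast-restricted genes (3.77 to 59.3) and 7.51 for the tested genes also made by other cells. In 16IC 2, by contrast, only 6 members lay below the median of the other tumours.

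Summed over the 22 fibroblast-restricted genes, levels were 2361, 824, 1825, 2382 and 1677 CPM across EIC and 897, 1801, 233, 596 and 1713 CPM across 16IC. 16IC 2 and 16IC 5 lay at the level of the middle EIC tumours, and EIC 2 lay below 16IC 1. The means were 1814 ± 637 and 1048 ± 689 CPM, a ratio of 0.578. Fbln2 alone gave 6.85% to 48.8% of the sum in the EIC tumours and 4.37% to 27.8% in the 16IC tumours. Without it, a choice made after seeing the data, the means were 1245 ± 476 and 859.8 ± 513 CPM, a ratio of 0.691. Without EIC 1 and 16IC 3 together, a choice made after seeing the data, the median log2 difference of these genes was -0.04 and 24 of the 37 members were below 0. With 1 tumour left out it was -0.31 without EIC 1, -0.27 without 16IC 3 and -0.79 without 16IC 2. For the genes also made by other cells the median was -1.12 without EIC 1 and 16IC 3 together.

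Fibroblast collagens (8 genes outside the set) and the fibroblast-restricted genes had the same highest and lowest tumours by mean log2 CPM. The collagens summed to 7416 CPM in EIC 1, the highest tumour, and only 486 CPM in 16IC 3, the lowest. Not every member kept to the collagens' order. In 16IC 4 the collagens summed to 1063 CPM, while Dcn was at 117 CPM and Lum at 64.0 CPM. All 8 collagens stood lower in 16IC on average, with a median log2 difference of -0.84, and none passed edgeR's adjusted threshold (smallest adjusted p 0.356). With the mean log2 CPM of these collagens as a covariate in edgeR's fit, a choice made after seeing the data, the median of the fibroblast-restricted genes was 0.22 and that of the genes also made by other cells -0.77. Under that fit 16 of the 37 members were below 0, and no member passed the adjusted threshold.

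Other cell types differed between the same tumours. Endothelial markers (6 genes) summed to 65.2 CPM in 16IC 3 and to 125 to 202 CPM in the others. Macrophage markers ranged from 329.9 to 616 CPM across EIC and from 253 to 605 CPM across 16IC, lowest in 16IC 3. Adipocyte markers, with Adipoq, Plin1, Lep and Cidec at 0 in at least 1 tumour, ran from 10.6 to 219.8 CPM, and skeletal muscle markers from 0.365 CPM in 16IC 3 to 2012 CPM in EIC 2. The part of these cells in the members' values was not tested.

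**Figure D5:**
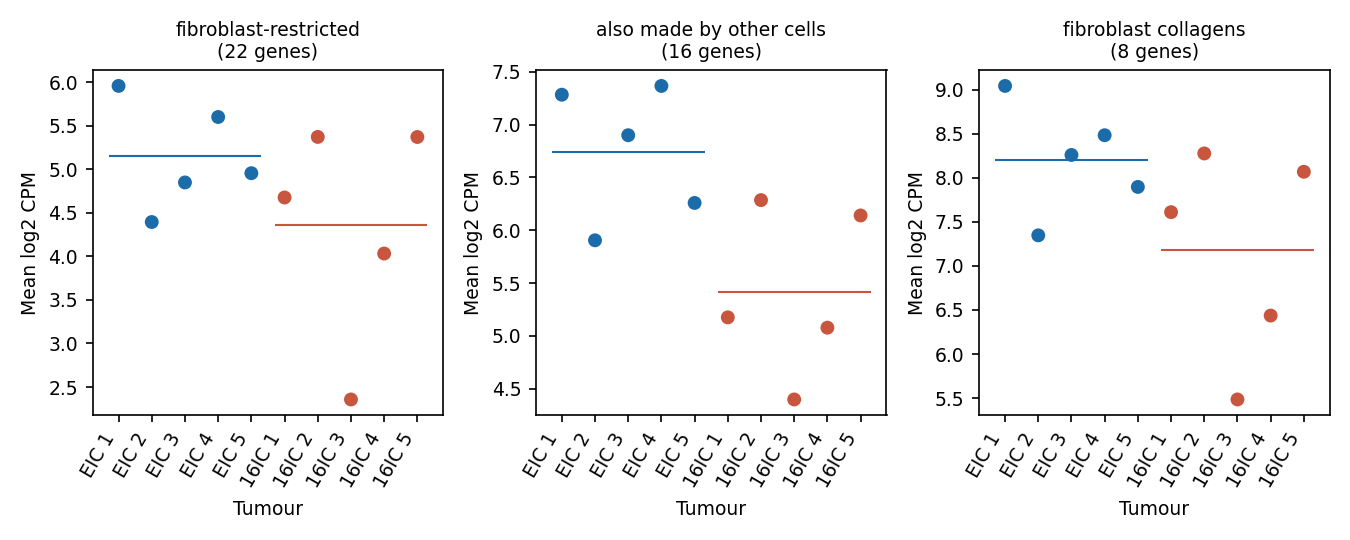
Mean log2 CPM (vertical axes, which do not start at 0) per tumour for the fibroblast-restricted members, the members also made by other cells and 8 fibroblast collagens, EIC blue and 16IC red, with horizontal lines at the group means. 16IC 3 is the lowest point in all 3 panels, at 2.36, 4.40 and 5.48, and 16IC 2 and 16IC 5 lie above the EIC mean of the fibroblast-restricted genes.

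The sum of the genes also made by other cells was 16020.2 ± 2606 CPM across EIC and 5906 ± 4549 CPM across 16IC, a ratio of 0.369. Spp1 alone gave 56.0% to 80.9% of it in the EIC tumours and 3.35% to 76.9% in the 16IC tumours. Without Spp1, a choice made after seeing the data, the sum was 4633 ± 1195 CPM across EIC and 2359 ± 429 CPM across 16IC, a ratio of 0.509.

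Fn1, Spp1 and Vim can come from several cell types, and their log2 CPM were therefore set against mean log2 CPM of fibroblast collagens, macrophage markers and luminal epithelial markers over the 10 tumours, 9 relations in all. Fn1 followed the collagens (Pearson r = 0.928, permutation p = 1.2e-04, adjusted p = 0.00108, and Spearman rho = 0.855, permutation p = 0.00348, adjusted p = 0.0313). Without 16IC 3 and 16IC 4, the tumours farthest from the median score, r was 0.817, with an adjusted p of 0.0549 over the same relations. For Fn1 and macrophage markers r was 0.782 (adjusted p = 0.0305, permutation test) and rho 0.745 (adjusted p = 0.0815, permutation test). Without the same tumours this r was 0.508 (adjusted p = 0.361, permutation test). Leaving out the farthest tumours narrows the range of the score, so the lower r does not tell what the relation rests on.

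Vim followed none of the 3 scores past the threshold: r was 0.580 with the collagens (adjusted p = 0.0831, permutation test), 0.554 with macrophage markers (adjusted p = 0.101) and 0.598 with luminal markers (adjusted p = 0.0831). For Fn1 and the luminal markers r was 0.621 (adjusted p = 0.0831, permutation test). Krt19 carried much of both luminal values: with the other 4 markers alone, a choice made after seeing the data, r was 0.151 for Fn1 (adjusted p = 0.671, permutation test) and 0.380 for Vim (adjusted p = 0.315, permutation test). The 7 high and 3 low tumours of Spp1 form separate clusters, so no r is given for it. All values in a relation come from the same libraries. The permutations ran over all tumours without regard to genotype, so a difference between the genotypes enters each r and its p.

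Other genes of the stroma, in 3 lists outside the set, were mostly lower in 16IC as well. Of 71 tested genes 50 were lower in 16IC (median log2 difference -0.48), beside 52.3% of all genes tested. EdgeR's adjusted test called 0 of them. An unadjusted p under 0.05 was found for 12, of which 2 were higher in 16IC, beside 13.1% of all genes in either direction. In either direction that count is near the share over all genes. Those lower in 16IC were 2 of 18 other fibroblast markers, 6 of 39 other matrix genes and 2 of 14 basement membrane genes. Over all genes tested, 6.29% were lower at that threshold. Other fibroblast markers had 13 of 18 lower, other matrix genes 25 of 39, and laminins, nidogens and the other non-collagen basement membrane genes 12 of 14.

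DESeq2 called 4 genes of these lists, 3 lower and 1 higher, beside 2.11% of all genes for which it gave an adjusted p. Matn2, a matrilin adaptor of filamentous matrix, stood at 39.2 ± 11.9 CPM across EIC and 15.4 ± 7.35 CPM across 16IC (log2 difference -1.35, adjusted p = 0.0100, DESeq2, and 0.249, edgeR). Loxl4, another lysyl oxidase, stood at 7.65 ± 6.01 and 1.89 ± 0.451 CPM (adjusted p = 0.0195, DESeq2). Acan, the cartilage proteoglycan aggrecan, did not pass edgeR's filter and ran from 0 to 31.5 CPM across EIC and from 0 to 0.235 CPM across 16IC (adjusted p = 0.00162, DESeq2). Npnt, which encodes nephronectin, an integrin ligand of basement membranes, went the other way. It measured 136, 54.3, 187, 85.5 and 156 CPM across EIC and 573, 271, 526, 328 and 169 CPM across 16IC, and only 16IC 5 lay within the EIC range (log2 difference 1.59, SE 0.40, adjusted p = 0.0129, DESeq2, and 0.254, edgeR).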

How the data were processed

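Per the labels' protocols, a Qiagen RNeasy kit served for extraction and NEBNext Ultra II for library preparation. The submitters' processing notes name STAR, HTSeq, Trimmomatic, limma and edgeR, and GRCm38 (mm10). Not given in the sources used here are versions, annotation release, strand setting and the handling of multi-mapped reads. All tests use the raw counts of the deposited table. Beside them stand the authors' normalized counts (a signal, the count over 1 factor per library) and the authors' FPKM, used only to compare levels between genes. The log2 fold changes and the p-values deposited by the authors served as a check: DESeq2 run on the counts called the same 356 genes. Adjusted p-values of DESeq2 and of the authors differed by at most 1.24e-04 over the members. Over all genes with both, the largest difference was 0.881.

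Counts were scaled by TMM to CPM. After filterByExpr (minimum count 10) genotype was tested with edgeR 4.0.16 (quasi-likelihood, robust) in R 4.3.3, adjusted by Benjamini-Hochberg over 14915 genes at 0.05. SE and 95% intervals come from that fit. Log2 CPM used a prior count of 2. Correlations used 100000 permutations, two-sided, in SciPy 1.17.1. Alternatives were DESeq2 1.42.0, voom of limma 3.58.1, other scalings and filters, leaving out each tumour, and 5 choices made after seeing the data. The scripts' tests were checked on simulated data. The members and lists were chosen with earlier results of these data known. Per-tumour values were given for Dcn, Pdgfra, Pdgfrb, Fap, Postn, Sparc, Fn1, Spp1, Vim, members with an unadjusted p under 0.05 or DESeq2 calls, and Npnt; for Fbln2 and Tnc they were added after their values were seen. Krt18, Krt19 and Epcam, and the genes outside the set that are not DESeq2 calls, were also named after their values were seen. Of the listed genes, Tcf21 had no row. Replicates are tumours of different mice, and the labels name no batch. Libraries were compared in pairs within a genotype only. The most similar of these pairs, 16IC 2 and 16IC 5, differed with a chi-square of 24.2 per degree of freedom over genes, beyond sampling noise. Overlaps between genes are from GENCODE mouse release M21, and promoters from RefSeq.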

Additional observations from a re-analysis of the deposited data

Results flagged for a closer look

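Within a genotype, 7 values of the members lay far from the other tumours of their group by Dixon's criterion on log2 CPM, in 76 tests (38 genes in 2 groups), where chance gives about 1 in 20. In 16IC 3 these were Dcn at 6.082 CPM, Lum at 3.102 CPM, Fap at 0.8514 CPM, Pi16 at 0.8514 CPM, Cdh11 at 3.527 CPM and Fstl1 at 32.48 CPM, each far below the other 16IC tumours. The remaining one was Fbln2 in EIC 2, at 56.43 CPM, far below the other EIC tumours. The members were measured in the same tumours, so the 76 tests are not independent. Their count of flags cannot be set against the rate for chance.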

How the results depend on the processing

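Of the calls, edgeR's 0 became 356 for all genes, 3 for the members and 4 for the other stromal genes under DESeq2, and 1958 genes had an unadjusted p under 0.05 by edgeR. Leaving out 1 tumour gave edgeR 0 to 2 calls over all genes and 0 among the members, and gave DESeq2 1 to 6 called members. Under DESeq2 the log2 differences of the called members were -2.58 (Vcan), -1.28 (Vim) and -1.38 (Loxl2). Voom called 0 genes, and by it 14 members had an unadjusted p under 0.05. The share of all genes under that threshold was not counted for voom, so the 14 cannot be set against it. Members below 0 were 33 to 37 of 37 with 1 tumour left out, 24 without EIC 1 and 16IC 3 together and 16 with the collagen covariate. The median of the members also made by other cells was -0.97 to -1.46 with 1 tumour left out, and that of the fibroblast-restricted members -0.86 by voom. Without the 2 farthest of 10 tumours r for Fn1 was 0.817 with the collagens, near its value over all 10 but no longer past the adjusted threshold, and 0.508 with macrophage markers.

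Single members turned in sign as follows, and the cause was not tested. Lum was -0.00042 under scaling by total counts, and voom gave Lum -0.34 and Cthrc1 -0.096. Leaving out 1 tumour gave Dcn -0.28 to 0.45, Lum -0.21 to 0.57, Cthrc1 -0.099 to 0.44, Mfap5 -0.55 to 0.062 and Ogn -0.91 to 0.10. Without EIC 1 and 16IC 3 together the log2 differences were Dcn 0.75, Fap 0.087, Fbln1 0.019, Pi16 0.026, Mfap4 0.16, Mfap5 0.21, Ogn 0.41, Cdh11 0.23, Loxl1 0.13, Fbln5 0.033 and Fstl1 0.015. With the collagen covariate they were Dcn 0.86, Pdgfra 0.15, Fap 0.37, Postn 0.17, Dpt 0.056, Fbln1 0.17, Pi16 0.29, Mfap4 0.53, Mfap5 0.49, Fbn1 0.21, Fmod 0.16, Ogn 0.66, Serpinf1 0.093, Cdh11 0.30, Loxl1 0.32, Eln 0.23, Fbln5 0.15, Bgn 0.090 and Fstl1 0.23. None of these members was called in either direction under any of these settings.

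No paired analysis was possible because tumour numbers were given in accession order and tie no EIC tumour to a 16IC tumour. The median biological coefficient of variation over all genes tested was 33.6%, and members with few reads, such as Cdh2 (down to 0.288 CPM) and Has2 (down to 0.122 CPM), carry counting error beside it. At 5 tumours a group, the intervals of 29 of the 37 members include 0, so a difference that was not called is not shown to be absent. Cell composition cannot be told apart from expression per cell. The labels give no batch, so none could be tested. Reads of genes that overlap on opposite strands, such as Fbn1, cannot be assigned without the strand setting. Spp1 and S100a4 share bases with a gene on the same strand, where that setting would not separate the reads.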

Other observations

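Among the marker lists of other cell types, DESeq2 called 2 genes and edgeR's adjusted test 0. Over all genes with an adjusted p from DESeq2, it called 2.11%. Krt17, a keratin of basal epithelium, measured 23.8, 0.356, 28.6, 20.8 and 11.4 CPM over EIC 1 to EIC 5 and 0.144, 1.31, 0.243, 0 and 1.58 CPM over 16IC 1 to 16IC 5. EIC 2 was the one EIC tumour among the 16IC ones, and the log2 difference of -4.65 had an adjusted p of 5.19e-04 by DESeq2 and 0.249 by edgeR. Twist1, a transcription factor of mesenchymal cells, measured 28.9, 2.08, 37.1, 86.0 and 31.2 CPM over EIC 1 to EIC 5 and 3.17, 6.36, 0.304, 1.30 and 4.63 CPM over 16IC 1 to 16IC 5. Again only EIC 2 lay within the 16IC range, and the log2 difference of -3.55 had an adjusted p of 0.0016 by DESeq2 and 0.261 by edgeR. All 5 transition factors (Zeb1, Zeb2, Snai1, Snai2 and Twist1) stood lower in 16IC on average, with a median log2 difference of -0.74, and 1 of them had an unadjusted p under 0.05 by edgeR.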
